A study of Mus musculus with 24 samples.

Results

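The 9 genes described here encode the m6A writers, the enzymes that methylate adenosines of RNA at the N6 position, and the proteins that work with them. They are Mettl3, Mettl14, Wtap, Virma, Zc3h13, Rbm15, Rbm15b, Cbll1 and Mettl16, and they were chosen by name from the 56941 genes of the deposited table. All 9 passed the filter on low levels, which 22448 genes passed in all. Newly made RNA was measured in E14TG2a cells, a mouse embryonic stem cell line, by labelling with 1 mM 5-ethynyl uridine (EU), a uridine analog that is built into growing transcripts and lets the new RNA be captured. Cells were labelled for 10, 20, 40 or 60 min in 3 genotypes, with 2 libraries for each of the 12 groups and 24 libraries in all. WT cells were unmodified. KO cells had a knockout of Alkbh5, and dcIDR cells carried an Alkbh5 without the part that the labels call cIDR, read here as its C-terminal intrinsically disordered region. All groups grew in medium with serum and LIF, to which inhibitors of MEK (PD0325901) and of GSK3 (CHIR99021) were added. As far as the labels tell, each genotype is 1 line and the replicates are at most separate dishes, so the p-values reflect no more than the spread among these samples, which may be technical. Differences between genotypes and differences between lines cannot be told apart.

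METTL3 is the catalytic subunit of the main m6A writer, and METTL14 is its partner, which has the same fold but serves to hold RNA and to support METTL3. A second module made of WTAP, VIRMA, ZC3H13, RBM15 or RBM15B, and CBLL1 brings this pair to nuclear speckles and to its RNA targets, on which methylation occurs while RNA is being made. ALKBH5 is a nuclear demethylase that removes the same mark, and the mark shortens the life of many transcripts that keep pluripotent cells in their state. METTL16 is a separate enzyme that methylates the U6 spliceosomal RNA and hairpins in the Mat2a transcript.

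Libraries held 3129083 to 22159864 gene reads and 6037 to 23382 reads of the Drosophila RNA added as a spike-in, the same amount per sample. The 9 writer genes had 82 to 8061 reads each per library. Levels are reads per gene after each library was scaled to 11714 spike-in reads. Genotypes were compared on the relative log2 level, log2(level + 1) minus the median over the tested genes of the same library, on which 0 is the median tested gene and a shift that all genes share is removed. Gene reads per spike-in read went in WT from 386 ± 74.2 to 1825 ± 362 between 10 and 60 min of labelling; the same times gave 638 ± 94.3 and 2171 ± 123 in KO and 255 ± 6.93 and 1909 ± 415 in dcIDR (SD, n = 2 each). The dcIDR libraries at 10 min were the lowest of all, since every other library had at least 334, and the calls of writer genes between genotypes that change without the 10 min libraries, and the median slopes, are also given without them. Libraries could not be tied to replicate numbers, so in each group the one with more spike-in reads is called A and the other B. For 6 of the writer genes the reads of WT at 60 min could not be divided between both libraries, and there the group has 1 value. Alkbh5 lay at 3.25 to 4.19 on the relative log2 scale in WT, 2.67 to 3.39 in KO and 2.55 to 3.70 in dcIDR, and reads over the whole gene do not check what was deleted. All 8 stem cell markers were tested, with summed levels of 14535 to 91073 in WT, 21916 to 91068 in KO and 10445 to 96812 in dcIDR. In KO against WT, where 32.1% of all tested genes passed limma's test, 1 of them was higher and 4 were lower, and 3 of the 4 neural markers (Pax6, Sox1, Nes, Tubb3) were higher, with a median difference of 0.85 and summed levels of 1932 to 8235 in KO against 723 to 4212 in WT and 423 to 3025 in dcIDR. Tubb3 lies on chromosome 8, whose tested genes had a median of 0.34 in KO minus WT. In dcIDR against WT, where 27.8% passed, 1 stem cell marker was higher and 2 were lower, Nes (-0.41) and Tubb3 (-0.88) were lower, and Gata6, an endoderm marker, and Tfap2c, a trophoblast marker, were higher (1.04 and 0.26). Gata6 was near the filter on low levels, with a median level of 13.0 and at most 47.3. The other 2 endoderm markers tested did not pass, nor did Elf5 (-0.02), the other trophoblast marker tested. Summed levels of 5 fibroblast markers stayed between 13.5 and 81.5 in all libraries, those of 4 endoderm markers between 10.4 and 165, and those of 4 trophoblast markers between 128 and 1012. Most of the trophoblast sum was Tfap2c, with 122 to 977, while Elf5 had at most 29.5 and Hand1 at most 21.8. Postn and Cdx2 had a median level of 0. The part of these cells in the results on writer genes was not tested, and in bulk RNA fewer cells of a type and less RNA per cell cannot be told apart.

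The sequences that precede the transcription starts of 4 writer genes are shown because these genes stand for the patterns described below: Mettl3 and Rbm15 passed limma's test between dcIDR and WT in opposite directions, Rbm15b passed it between KO and WT, and Mettl16 did not share the trend with labelling time. The calls of Mettl3 and Rbm15b each held in 9 of 24 fits that left out 1 library, and neither held without the 10 min libraries. Of the 9 genes 7 were found in RefSeq's promoter table (build GRCm38.p6), and Mettl14 and Virma were not. Each line gives the 250 bases before the start, 5′ to 3′ on the gene's strand, with matches to the searched motifs in capitals where they lie wholly within these bases. The windows are chr14:52305125-52305374 (minus strand) for Mettl3, chr3:107333290-107333539 (minus strand) for Rbm15, chr9:106887076-106887325 (minus strand) for Rbm15b and chr11:74770613-74770862 (plus strand) for Mettl16.
Mettl3: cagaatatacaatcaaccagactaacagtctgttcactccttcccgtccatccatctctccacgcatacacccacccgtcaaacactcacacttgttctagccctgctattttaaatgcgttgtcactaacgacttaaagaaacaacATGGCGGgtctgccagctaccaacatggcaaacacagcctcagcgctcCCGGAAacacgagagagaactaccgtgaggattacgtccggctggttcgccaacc
Rbm15: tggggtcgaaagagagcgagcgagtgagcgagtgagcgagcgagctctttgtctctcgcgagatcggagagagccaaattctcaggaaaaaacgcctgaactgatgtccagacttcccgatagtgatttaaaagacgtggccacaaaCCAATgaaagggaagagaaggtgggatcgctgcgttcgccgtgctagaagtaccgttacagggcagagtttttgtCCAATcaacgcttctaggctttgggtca
Rbm15b: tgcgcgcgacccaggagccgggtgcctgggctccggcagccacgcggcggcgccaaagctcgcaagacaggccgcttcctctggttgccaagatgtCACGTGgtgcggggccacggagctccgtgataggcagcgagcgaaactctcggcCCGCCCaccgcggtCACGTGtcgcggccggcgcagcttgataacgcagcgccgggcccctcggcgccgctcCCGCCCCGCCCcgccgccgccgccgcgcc
Mettl16: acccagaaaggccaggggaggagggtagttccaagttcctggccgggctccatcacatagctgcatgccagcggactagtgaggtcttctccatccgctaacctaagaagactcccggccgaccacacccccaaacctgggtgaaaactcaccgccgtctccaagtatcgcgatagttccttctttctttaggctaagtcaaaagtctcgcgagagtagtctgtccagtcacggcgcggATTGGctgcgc
The search covered 250 bases before to 50 after the start on both strands, in 32851 promoters. It used GGGCGG (GC box, in 35.7% of promoters), CCAAT (in 37.4%), TATAAA (in 13.6%), CCGGAA (the core bound by ETS factors, in 14.9%), ATGGCGG (a YY1-type motif, in 4.05%) and CACGTG (E box, its own reverse complement and counted once, in 7.15%). In Mettl3 the capitals mark the YY1-type motif 103 bases and the ETS core 55 bases before the start; another ETS core begins 2 bases before the start and runs past it. The capitals in Rbm15 are 2 CCAAT boxes, 103 and 28 bases before the start. Rbm15b has E boxes 154 and 86 bases before the start, a GC box 100 bases before it and 2 more, 29 and 24 bases before it, that overlap by 1 base. The capitals in Mettl16 are a CCAAT box on the other strand, 11 bases before the start. None of the 7 promoters held TATAAA, and their CpG count was 17 to 46 in 300 bases, against a median of 7 over all promoters, of which 31.4% had at least 17. Beyond the start, at base 20 of the transcript, Rbm15 has a GC box, and Rbm15b and Mettl16 have YY1-type motifs at bases 18 and 4. A match is a description of these letters and was not tested as a site.

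All 9 genes had reads in every library. Per kilobase of exon, with the geometric mean over the 24 libraries as the level, Zc3h13 led with 640, followed by Wtap with 466 and Rbm15 with 441. Below these stood Virma with 218, Mettl14 with 184, Mettl16 with 166, Rbm15b with 144, Mettl3 with 127 and Cbll1 with 94.2. Zc3h13 was above Wtap in 24 of 24 libraries, Rbm15 above Virma in 24 and Mettl3 above Cbll1 in 24, whereas Wtap was above Rbm15 in 16 and Mettl14 above Mettl16 in 15, so these 2 neighbouring pairs changed places between libraries. Virma exceeded Mettl14 in 20 libraries, Mettl16 exceeded Rbm15b in 20 and Rbm15b exceeded Mettl3 in 22. For the 6 genes whose WT reads at 60 min could not be divided, the group's reads were shared out over both libraries. These 2 libraries are not separate values for them in the means and counts. EU-labelled RNA holds introns, and per kilobase of the whole gene the order was another: Rbm15 had 396, Rbm15b 144 and Wtap 106, while Virma, the gene with the longest span, was last with 24.1. By mean level without regard to length, Zc3h13 stood at percentile 98.1 of all tested genes, Mettl3 at 80.3 and Cbll1 at 71.9, the last being the lowest of the 9.

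**Figure D1:**
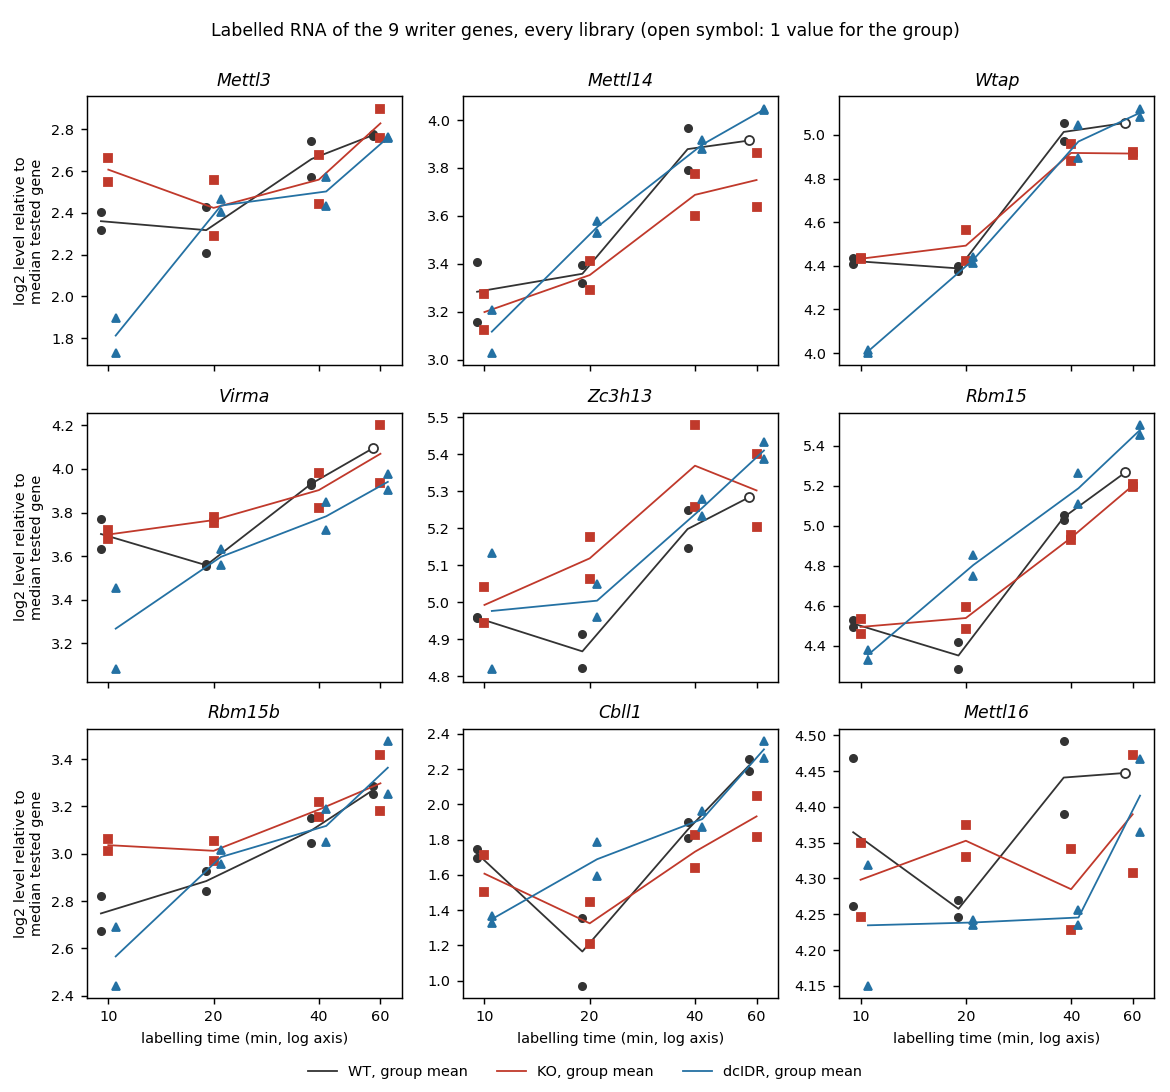
Relative log2 level (y axis, log2, 0 is the median tested gene of the library) of each writer gene against labelling time (x axis, min) in WT, KO and dcIDR, 1 point per library; an open symbol is the 1 value of a group whose reads could not be divided between libraries. In WT the values at 60 min lie above both values at 10 min for all genes but Mettl16, and the dcIDR points at 10 min are the lowest of Mettl3 (1.73 and 1.90) and of Wtap (4.0 and 4.02).

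Mettl3 (ENSMUSG00000022160, chromosome 14) encodes the methyltransferase itself. Its relative log2 levels in WT, library A before B, were 2.32 and 2.40 after 10 min, 2.43 and 2.21 after 20 min, 2.57 and 2.75 after 40 min, and 2.77 and 2.78 after 60 min. KO libraries gave 2.55 and 2.66, 2.56 and 2.29, 2.68 and 2.44, and 2.76 and 2.90 at the same times. In dcIDR the values were 1.73 and 1.90, 2.40 and 2.47, 2.43 and 2.57, and 2.76 and 2.76. The dcIDR libraries at 10 min thus lay far below all others, and at 20 min both genotypes overlapped. Over the 4 times dcIDR was lower than WT by a log2 difference of -0.15 ± 0.06 (SE; 95% interval -0.26 to -0.03; limma adjusted p = 0.0476), which became -0.02 (limma adjusted p = 0.871) without the 10 min libraries and turned to 0.02 on the deposited spike-in scale. Against KO the difference was -0.23 (limma adjusted p = 0.00161), and -0.04 (limma adjusted p = 0.644) without 10 min. For KO minus WT it was 0.08 ± 0.06 (95% interval -0.04 to 0.19; limma adjusted p = 0.319).

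Mettl14 (ENSMUSG00000028114, chromosome 3) encodes the partner that binds RNA within the catalytic pair. Values in WT were 3.41 and 3.16 after 10 min, 3.32 and 3.40 after 20 min, 3.79 and 3.97 after 40 min, with 1 value of 3.91 after 60 min. Those of KO were 3.27 and 3.12, 3.41 and 3.29, 3.78 and 3.60, and 3.86 and 3.64. In dcIDR they were 3.03 and 3.21, 3.53 and 3.58, 3.92 and 3.88, and 4.04 and 4.05. KO lay below WT without overlap at 40 min and below the 1 value of WT at 60 min. Both dcIDR libraries lay above both KO libraries at 20, 40 and 60 min. The difference of KO from WT was -0.11 ± 0.05 (95% interval -0.22 to -0.00; limma adjusted p = 0.116) and turned to 0.20 on the deposited scale; dcIDR minus WT was 0.04 ± 0.05 (95% interval -0.07 to 0.15; limma adjusted p = 0.587). The difference between dcIDR and KO passed the test at 0.16 ± 0.05 (limma adjusted p = 0.0135), and missed it without library B of KO at 60 min (0.13; limma adjusted p = 0.0510).

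The ratio of Mettl14 to Mettl3 per kilobase of exon describes the balance of new RNA from the catalytic pair. Its group means in WT were 1.31, 1.42 and 1.60 after 10, 20 and 40 min, with 1 value of 1.51 after 60 min. KO had 1.04, 1.31, 1.50 and 1.31 at these times. In dcIDR the ratios were 1.70, 1.49, 1.80 and 1.67, the highest of the 3 genotypes at each time by group mean. In single libraries the ratio ran from 0.941 (KO at 10 min, B) to 1.91 (dcIDR at 40 min, A). These ratios combine the 2 differences given above and were not tested.

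Wtap (ENSMUSG00000060475, chromosome 17) encodes the adaptor that holds the catalytic pair in nuclear speckles. WT libraries gave 4.43 and 4.41 after 10 min, 4.40 and 4.38 after 20 min, 5.06 and 4.97 after 40 min and 1 value of 5.05 after 60 min. The KO values were 4.43 and 4.43, 4.42 and 4.56, 4.96 and 4.88, and 4.91 and 4.92. For dcIDR they were 4.0 and 4.02, 4.44 and 4.41, 5.05 and 4.89, and 5.08 and 5.12. Libraries at 40 and 60 min stood above those at 10 and 20 min in all 3 genotypes, and dcIDR at 10 min stood apart from the rest. KO minus WT was -0.03 ± 0.04 (95% interval -0.11 to 0.05; limma adjusted p = 0.584), with the sign turned on the deposited scale (0.28), with quantile normalization (0.003), with a pseudocount of 10 (0.001), without the filter (0.03) and with another centring (0.01). For dcIDR minus WT it was -0.09 ± 0.04 (95% interval -0.17 to -0.02; limma adjusted p = 0.0650), which turned to 0.08 on the deposited scale and to 0.01 without 10 min.

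Virma (ENSMUSG00000040720, chromosome 4) encodes the large scaffold on which the regulatory proteins assemble. In WT its values were 3.77 and 3.63 after 10 min, 3.55 and 3.56 after 20 min, 3.94 and 3.93 after 40 min, and 1 value of 4.10 after 60 min. In KO they were 3.68 and 3.72, 3.78 and 3.75, 3.98 and 3.82, and 4.20 and 3.94. In dcIDR the libraries gave 3.08 and 3.45, 3.56 and 3.63, 3.85 and 3.72, and 3.90 and 3.98. They lay below WT without overlap at 10 and 40 min, and below the 1 value of WT at 60 min. Over all times dcIDR was lower than WT by -0.17 ± 0.05 (95% interval -0.29 to -0.06; limma adjusted p = 0.0175), a call that held without any 1 of the 24 libraries (-0.22 to -0.13). It missed the threshold without the 10 min libraries (-0.09; limma adjusted p = 0.224), and the value was -0.00 on the deposited scale and 0.30 there without 10 min. Against KO the difference was -0.21 ± 0.05 (limma adjusted p = 0.00144), and 0.08 on the deposited scale without 10 min. The value of KO minus WT was 0.04 ± 0.05 (95% interval -0.07 to 0.15; limma adjusted p = 0.653).

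Zc3h13 (ENSMUSG00000022000, chromosome 14) encodes a zinc finger protein that keeps the regulatory module in the nucleus of mouse embryonic stem cells. Its relative log2 levels ran from 4.82 to 5.28 in WT, from 4.94 to 5.48 in KO and from 4.82 to 5.43 in dcIDR, and the ranges overlapped widely. KO libraries lay above WT without overlap at 20 min (5.06 and 5.18 against 4.82 and 4.91) and at 40 min (5.48 and 5.26 against 5.15 and 5.25). The differences were 0.12 ± 0.05 for KO minus WT (95% interval 0.02 to 0.22; limma adjusted p = 0.0656) and 0.08 ± 0.05 for dcIDR minus WT (95% interval -0.02 to 0.19; limma adjusted p = 0.210). The first passed the test without the 10 min libraries (0.15; limma adjusted p = 0.0302) and on the deposited scale (0.43; limma adjusted p = 0.0237), where the median gene shifted too. dcIDR minus KO was -0.03 ± 0.05 (95% interval -0.13 to 0.06), with a sign that turned with quantile normalization (0.03).

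Rbm15 and Rbm15b encode related RNA-binding proteins that can each take the same place in the complex, and that bring it to Xist and other targets. For Rbm15 (ENSMUSG00000048109, chromosome 3) WT had 4.53 and 4.49 after 10 min, 4.42 and 4.28 after 20 min, 5.03 and 5.05 after 40 min, and 1 value of 5.27 after 60 min. The KO values were 4.53 and 4.46, 4.48 and 4.59, 4.95 and 4.93, and 5.19 and 5.21. In dcIDR they were 4.38 and 4.33, 4.75 and 4.86, 5.27 and 5.11, and 5.45 and 5.50. Both dcIDR libraries were below both WT libraries at 10 min and above them at 20 and 40 min. At 60 min both were above the 1 value of WT. Over all times dcIDR was higher than WT by 0.16 ± 0.04 (95% interval 0.08 to 0.24; 1.12-fold; limma adjusted p = 0.00225) and higher than KO by 0.16 ± 0.04 (limma adjusted p = 0.000665). Without the 10 min libraries the difference from WT was 0.27 (limma adjusted p = 0.000108), and on the deposited scale it was 0.33 (limma adjusted p = 0.152). KO minus WT was 0.00 ± 0.04 (95% interval -0.08 to 0.08; limma adjusted p = 0.994), the value nearest to 0 among the 9 genes, with a sign that depends on single libraries.

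For Rbm15b (ENSMUSG00000074102, chromosome 9), a gene without introns, WT values were 2.82 and 2.67 after 10 min, 2.93 and 2.84 after 20 min, 3.05 and 3.15 after 40 min, and 3.25 and 3.29 after 60 min. KO had 3.06 and 3.01, 3.05 and 2.97, 3.16 and 3.22, and 3.18 and 3.42. In dcIDR they were 2.44 and 2.69, 3.01 and 2.96, 3.19 and 3.05, and 3.48 and 3.25. KO libraries lay above WT libraries at 10, 20 and 40 min and overlapped with them at 60 min. KO was higher than WT by 0.13 ± 0.05 (95% interval 0.03 to 0.24; 1.10-fold; limma adjusted p = 0.0466), close to the threshold: leaving out 1 library at a time gave 0.10 to 0.16, and the call held in 9 of 24 such fits. Without the 10 min libraries it was 0.08 (limma adjusted p = 0.267). dcIDR minus WT was 0.01 ± 0.05 (95% interval -0.10 to 0.11), with a sign that depends on single libraries. dcIDR was lower than KO by -0.12 ± 0.05 (limma adjusted p = 0.0476), a call that held in 7 of 24 fits that left out 1 library. Without 10 min the difference from KO was -0.01 (limma adjusted p = 0.899), and it turned to 0.21 on the deposited scale without 10 min. Rbm15b lies within Manf on the same strand in GENCODE M21, and how reads of overlapping genes were counted is not given in the sources used here. Manf, an endoplasmic reticulum stress gene, had 0.20 in KO minus WT (limma adjusted p = 0.00167) and 0.05 in dcIDR minus WT (limma adjusted p = 0.445), so the reads of the 2 genes cannot be told apart with certainty. The ratio of Rbm15 to Rbm15b per kilobase of exon rested on the same reads. Its group means were 2.98, 2.43, 3.37 and 1 value of 3.49 in WT, 2.41, 2.53, 2.96 and 3.29 in KO, and 3.05, 3.10, 3.68 and 3.82 in dcIDR, in order of time. Rbm15 had more labelled RNA per kilobase than Rbm15b in each library with a value.

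Cbll1 (ENSMUSG00000020659, chromosome 12) encodes HAKAI, a RING-type ubiquitin ligase that is part of the regulatory module. The lowest of the 9 genes by level, it had 1.75 and 1.70 after 10 min, 1.36 and 0.97 after 20 min, 1.90 and 1.81 after 40 min and 2.19 and 2.26 after 60 min in WT. KO libraries gave 1.50 and 1.71, 1.44 and 1.21, 1.82 and 1.64, and 2.05 and 1.82. Values of dcIDR were 1.37 and 1.33, 1.78 and 1.59, 1.96 and 1.87, and 2.36 and 2.26. The WT libraries at 20 min were the lowest of WT, and dcIDR lay above KO at 20, 40 and 60 min but below it at 10 min. KO minus WT was -0.09 ± 0.07 (95% interval -0.23 to 0.04; limma adjusted p = 0.315), or 0.22 on the deposited scale, and dcIDR minus WT was 0.08 ± 0.07 (95% interval -0.06 to 0.21; limma adjusted p = 0.429). dcIDR was higher than KO by 0.17 ± 0.07 (limma adjusted p = 0.0396), in 16 of 24 fits that left out 1 library. Without 10 min, dcIDR was higher than WT by 0.23 (limma adjusted p = 0.0228).

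Mettl16 (ENSMUSG00000010554, chromosome 11) had the narrowest range of the 9 genes: 4.25 to 4.49 in WT, 4.23 to 4.47 in KO and 4.15 to 4.47 in dcIDR, over all labelling times. KO minus WT was -0.05 ± 0.04 (95% interval -0.14 to 0.05; limma adjusted p = 0.473), which turned to 0.26 on the deposited scale and 0.01 without the filter. dcIDR minus WT was -0.09 ± 0.04 (95% interval -0.19 to -0.00; limma adjusted p = 0.121) and turned to 0.08 on the deposited scale, and dcIDR minus KO was -0.05 ± 0.04 (95% interval -0.13 to 0.04; limma adjusted p = 0.375). None of these passed the test. Mat2a, which makes the methyl donor S-adenosylmethionine and whose transcript METTL16 methylates, did differ. Its relative log2 levels were 5.16 to 5.79 in WT up to 40 min with 1 value of 6.04 after 60 min, 5.74 to 6.20 in KO and 4.45 to 5.59 in dcIDR, with KO above WT and dcIDR below WT at all 4 times. The differences were 0.37 ± 0.04 for KO minus WT (limma adjusted p = 1.28e-08) and -0.61 ± 0.04 for dcIDR minus WT (limma adjusted p = 5.76e-12). Mat2a lies on chromosome 6, whose 782 tested genes had medians of 0.41 and -0.11 in these comparisons.

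In WT 8 of the 9 writer genes rose with labelling time relative to the median gene. The slope of the relative log2 level per doubling of labelling time was positive and passed limma's test for these 8, where 35.7% of all tested genes passed 26.1% with a positive and 9.68% with a negative slope. It was 0.33 for Rbm15, 0.29 for Wtap, 0.28 for Mettl14, 0.23 for Cbll1, 0.20 for Rbm15b, 0.18 for Mettl3, 0.17 for Virma and 0.15 for Zc3h13, with limma adjusted p from 9.35e-09 to 0.00417. Mettl16 had 0.05 (limma adjusted p = 0.305). The median of the 9 slopes was 0.20, against 0.04 over all tested genes and 0.13 over the 6319 genes with a mean level at least that of the lowest writer. The size of these slopes depends on the scaling: with quantile normalization, which takes out a trend shared by genes of like level, 4 remained positive and past the threshold (Mettl14, Wtap, Rbm15 and Cbll1), Zc3h13 had -0.001 and Mettl16 was lower with time (-0.09).

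In KO 7 of 9 slopes passed, all positive (27.9% of all genes passed, 20.7% with a positive and 7.2% with a negative slope), and in dcIDR 8 of 9 did (44.6% passed, 30.5% positive and 14.1% negative). The median of the 9 was 0.14 in KO and 0.33 in dcIDR, beside 0.03 and 0.05 over all genes. Rbm15 and Wtap had the steepest slopes in dcIDR, 0.43 and 0.44, and Rbm15 the steepest in KO, 0.28. Mettl3 had 0.08 in KO (limma adjusted p = 0.151) and 0.33 in dcIDR (limma adjusted p = 1.86e-07). Without the 10 min libraries the median of the 9 slopes was 0.34 in WT, 0.24 in KO and 0.26 in dcIDR, so that dcIDR no longer had the steepest median. The slopes of Mettl3 and Wtap in dcIDR were then 0.19 (limma adjusted p = 0.0355) and 0.44 (limma adjusted p = 1.91e-07), and those in WT 0.29 and 0.44.

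**Figure D2:**
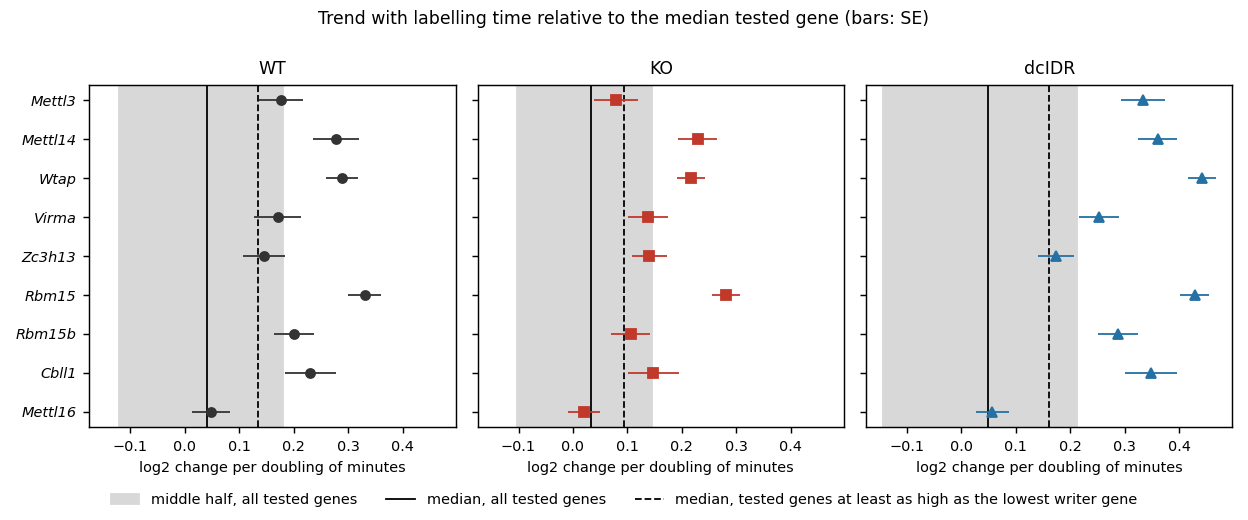
Slope of the relative log2 level per doubling of labelling time (x axis, log2 units, bars are SE) of the 9 writer genes (y axis), 1 panel per genotype. The grey band spans the quartiles of all tested genes, the solid line is their median, and the dashed line is the median of genes at least as high as the lowest writer gene. The slopes of WT run from 0.05 for Mettl16 to 0.33 for Rbm15, and in dcIDR from 0.06 to 0.44.

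The authors' deposited table gives the same genes as a log2 ratio to 10 min on the spike-in scale, with both replicates combined, so that the growth of labelled RNA as a whole is included. At 60 min the authors' deposited table has WT ratios of 2.04 for Mettl16 to 2.72 for Rbm15, where the median tested gene has 2.09. For KO the authors' deposited table gives 1.67 for Mettl16 to 2.28 for Rbm15, with a median gene of 1.67. The dcIDR ratios in the authors' deposited table run from 2.74 for Mettl16 to 3.68 for Rbm15, with a median gene of 2.72. Mettl16 thus followed the median gene closely in all 3 genotypes, and Rbm15 was the highest of the 9. At 20 min the authors' deposited table has 0.37 for Cbll1 and 1.04 for Rbm15b in WT, the ends of the range, with a median gene of 0.93. The corresponding dcIDR ratios in the authors' deposited table are 2.19 for Mettl16 and 2.82 for Mettl3, with a median gene of 2.26.

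Between KO and WT the writer genes differed little. Of the 9 genes 1 passed the test over all genes, Rbm15b, which was higher, where 32.1% of all tested genes passed (15.4% higher, 16.7% lower). At an unadjusted p under 0.05 there were 3. Differences ran from -0.11 for Mettl14 to 0.13 for Rbm15b, with a median of 0.00 beside -0.01 over all tested genes, and their median size of 0.0777 was below the 0.190 of all tested genes. All tested genes include many of lower level than the writer genes, and a median size for genes of like level was not worked out. With the filter at a mean level of at least 50, 40.5% of genes passed. Without centring, on the deposited spike-in scale, KO stood higher by 0.30 in the median tested gene (0.15 without 10 min), so that 90.5% of the called genes were higher there, against 48.0% on the relative scale. On that scale 3 writer genes passed and were higher, Mettl3 (0.39), Zc3h13 (0.43) and Rbm15b (0.44), each not far above the shift of the median gene.

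Between dcIDR and WT 3 of 9 genes passed, Rbm15 higher and Mettl3 and Virma lower, where 27.8% of all tested genes passed (11.4% higher, 16.4% lower). The median of the 9 differences was 0.01 and that of all genes -0.02, and the median size was 0.0933 against 0.175, again not matched for level. With the filter at a mean level of at least 50, 35.4% of genes passed in dcIDR minus WT and 54.1% in dcIDR minus KO. At an unadjusted p under 0.05 there were 5. On the deposited scale the median gene was higher by 0.15 (0.39 without 10 min), 75.7% of the called genes were higher against 40.9% on the relative scale, and none of the 9 passed limma's test (1 at an unadjusted p under 0.05). Without 10 min on the relative scale 2 of the 9 passed, Rbm15 and Cbll1, both higher, beside 30.3% of all genes. Between dcIDR and KO 6 of 9 passed, where 45.2% of all genes did (21.9% higher, 23.3% lower): Mettl14, Rbm15 and Cbll1 were higher and Mettl3, Virma and Rbm15b lower. Without 10 min 4 passed, beside 47.8% of all genes: Mettl14 (0.23), Rbm15 (0.26) and Cbll1 (0.31) were higher and Virma (-0.14) was lower. The median gene of this comparison moved by -0.13 on the deposited scale (0.25 without 10 min), where 27.1% of called genes were higher against 48.5%. The 3 comparisons share libraries, so their values are not independent of each other. Wtap, Zc3h13 and Mettl16 passed in none of the 3.

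**Figure D3:**
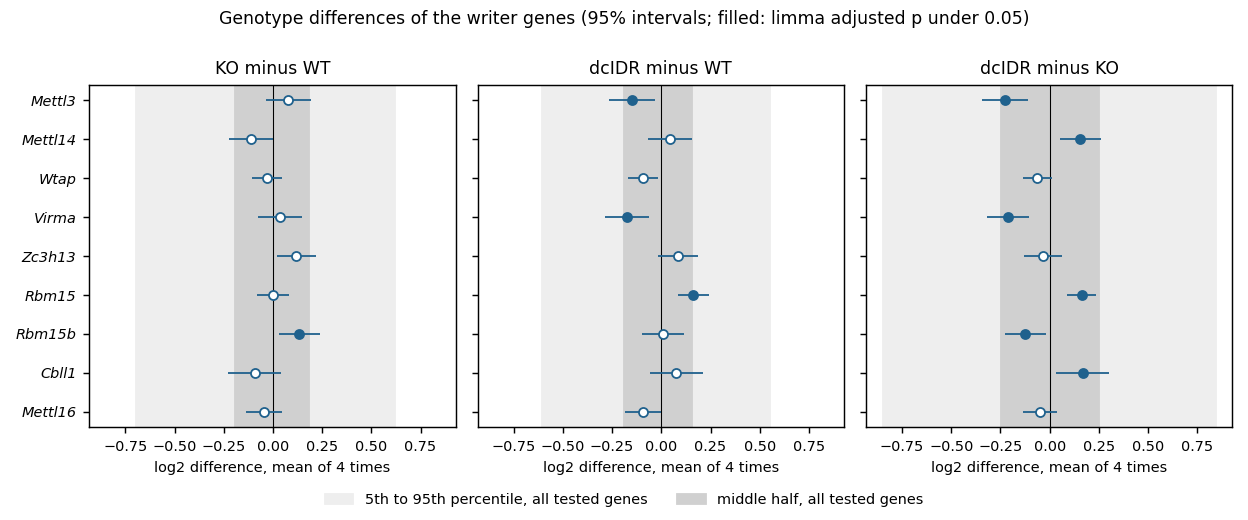
Log2 difference of the relative level (x axis) for each writer gene in KO minus WT, dcIDR minus WT and dcIDR minus KO, with 95% intervals; filled points passed limma's test and grey bands span the quartiles and the 5th to 95th percentiles of all tested genes. All 27 points lie between -0.23 (Mettl3, dcIDR minus KO) and 0.17 (Cbll1, dcIDR minus KO).

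The differences between dcIDR and WT depended on labelling time for 4 of 9 genes by limma's F test, where 7.82% of all tested genes passed. With the filter at a mean level of at least 50, 13.2% of genes passed this test. Mettl3 had -0.55, 0.12, -0.16 and -0.01 after 10, 20, 40 and 60 min (SE 0.11; limma adjusted p = 0.0336). Wtap had -0.42, 0.04, -0.04 and 0.05 (limma adjusted p = 0.0144). Rbm15 had -0.16, 0.45, 0.15 and 0.21 (limma adjusted p = 0.00521) and Cbll1 -0.37, 0.52, 0.06 and 0.09 (limma adjusted p = 0.0208). All 4 had values below 0 at 10 min and above 0 at 20 min. Virma had -0.43, 0.04, -0.15 and -0.15 and did not pass (limma adjusted p = 0.158). At 10 min 8 of the 9 genes had a value below 0, all but Zc3h13 (0.02), and at 20 min 8 had one above 0, all but Mettl16 (-0.02). The shares of all tested genes, or of genes of like level, with these signs were not worked out. Nothing particular to writer genes is read from these counts. Without the 10 min libraries limma called 0 of the 9 (2 at an unadjusted p under 0.05), where 1.47% of all genes passed. When 1 library was left out at a time, Rbm15 passed in 24 of 24 fits, Wtap in 23, Cbll1 in 21 and Mettl3 in 14, with limma adjusted p up to 0.101 for Mettl3. Virma passed in 1 such fit, without library B of dcIDR at 10 min (limma adjusted p = 0.0166). Captured RNA per spike-in read at 10 min was lowest in dcIDR, as given above; its part in these values was not tested.

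For KO minus WT limma's F test called 0 of 9 genes, with 1 (Rbm15) at an unadjusted p under 0.05, and 0.00445% of all tested genes passed, a single one. The values of Mettl3 were 0.25, 0.11, -0.10 and 0.06 at 10, 20, 40 and 60 min and those of Rbm15b were 0.29, 0.13, 0.09 and 0.03. At 20 min 8 of the 9 genes had a value above 0, all but Mettl14 (-0.01). At 40 min 7 were below 0, all but Zc3h13 (0.17) and Rbm15b (0.09). Here too the shares of other genes with these signs were not worked out, so the counts are a description only.

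**Figure D4:**
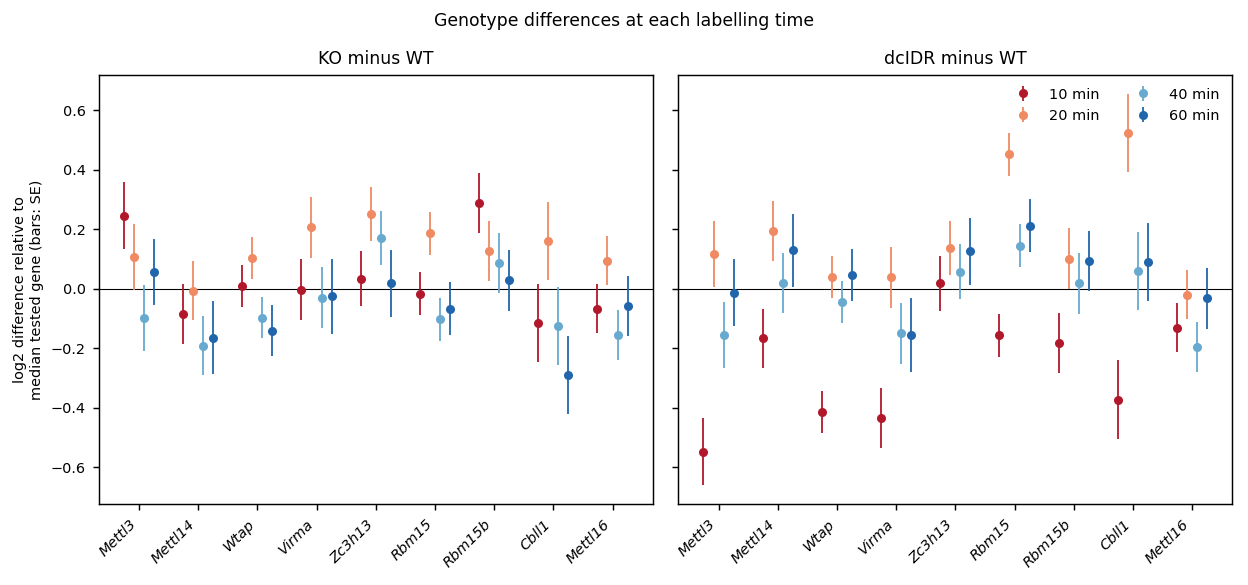
Log2 difference of the relative level (y axis, bars are SE) for each writer gene (x axis) at 10, 20, 40 and 60 min (colours), with KO minus WT on the left and dcIDR minus WT on the right. The dcIDR differences of Mettl3, Wtap, Virma and Cbll1 at 10 min (-0.55, -0.42, -0.43 and -0.37) lie below their values at the later times.

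Other genes that act on m6A were counted on lists made by known role. Both erasers differed in KO: Alkbh5, the knocked-out gene, was lower by -0.60 (limma adjusted p = 4.47e-09; -0.29 and past no threshold on the deposited scale, limma adjusted p = 0.125), and Fto, the other m6A demethylase, was higher by 0.46 (limma adjusted p = 9.70e-08). In dcIDR Alkbh5 was lower than WT by -0.46 (limma adjusted p = 7.11e-07; 0.01 on the deposited scale without 10 min). Fto lies on chromosome 8, whose 780 tested genes had a median of 0.34 in KO minus WT.

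Of 14 reader genes, whose proteins bind m6A or RNA near it, 5 were higher, 3 lower and 6 did not pass in KO against WT, and 2, 5 and 7 in dcIDR against WT. The shares of all tested genes were 32.1% (15.4% higher, 16.7% lower) and 27.8% (11.4% higher, 16.4% lower). Among the 5 higher in KO, Igf2bp3 and Hnrnpa2b1 lie on chromosome 6 and Elavl1 on chromosome 8, with medians of 0.41 and 0.34. Igf2bp3, which stabilizes target transcripts, was higher in KO by 0.58 (limma adjusted p = 1.39e-10). Igf2bp1, of the same family, was lower in dcIDR than in WT by -0.44 (limma adjusted p = 1.63e-09). Between dcIDR and KO, 2 readers were higher, 5 lower and 7 did not pass (45.2% of all genes passed), and Igf2bp3 (-0.85) and Hnrnpa2b1 (-0.49) were lower; chromosome 6 had a median of -0.51 there. The median difference of the readers was -0.03 in KO minus WT and -0.02 in dcIDR minus WT, close to the -0.01 and -0.02 of all genes.

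Of 8 genes of methyl donor metabolism 5 were higher and 2 lower in KO, with a median of 0.24, and 1 was higher and 4 lower in dcIDR against WT, with a median of -0.11. The shares over all genes are those given for the readers. Of the 5 higher in KO, Mat2a (0.37) and Ahcyl2 (0.36) lie on chromosome 6. Besides Mat2a, Mtr, the methionine synthase, was lower in KO by -0.44 (limma adjusted p = 1.27e-08), and Ahcyl1, a homologue of the enzyme that hydrolyses S-adenosylhomocysteine, was higher in dcIDR than in WT by 0.41 (limma adjusted p = 1.37e-06). Between dcIDR and KO 2 of the 8 were higher and 5 lower, with a median of -0.31: Mat2a had -0.97 (limma adjusted p = 5.87e-17), Mat2b, the regulatory subunit beside MAT2A, -0.42, and Mtr 0.40. Of 5 genes for other RNA adenosine methyltransferases and partners 1 was lower in KO, and in dcIDR against WT limma called 0 of 5, also at an unadjusted p under 0.05. Of 3 genes for proteins reported to guide or restrain the writer 1 was lower in KO and 1 lower in dcIDR. With the filter at a mean level of at least 50, 40.5% of all genes passed in KO minus WT, 35.4% in dcIDR minus WT and 54.1% in dcIDR minus KO. The list of methyl donor metabolism holds 8 genes, some of them on chromosome 6, and the 3 comparisons share libraries. Nothing about methyl donor metabolism is read from its counts. The last 2 lists hold 5 and 3 genes, also too few for their counts to be read.

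**Figure D5:**
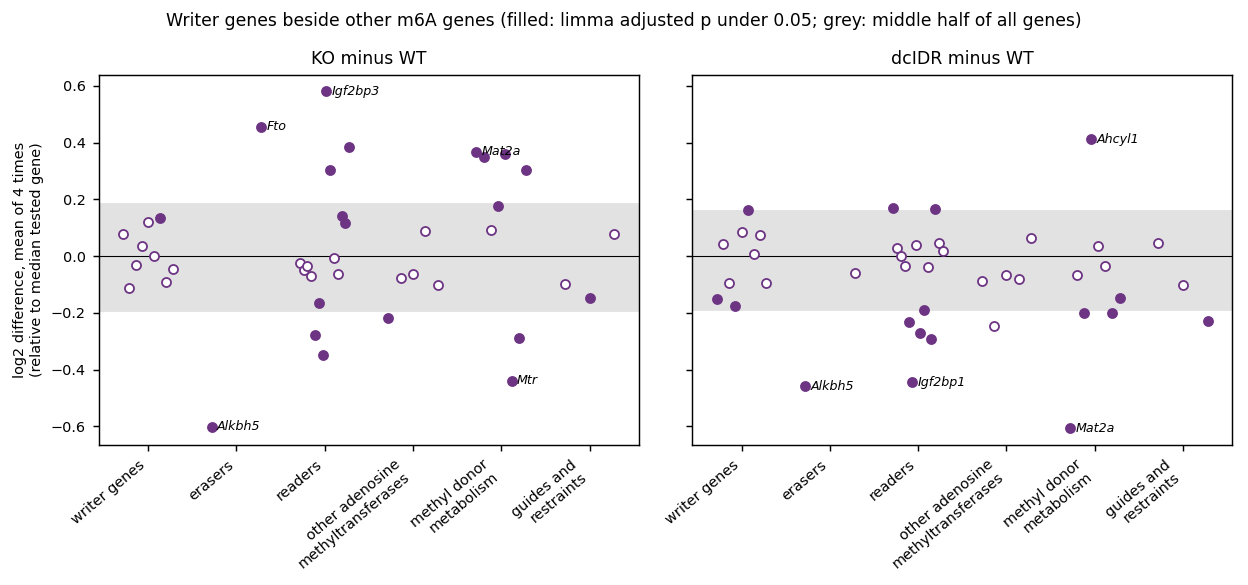
Log2 difference of the relative level (y axis) of the writer genes beside the other lists of m6A genes, 1 point per gene, for KO minus WT and dcIDR minus WT; filled points passed limma's test, and the grey band spans the quartiles of all tested genes. Writer genes lie within -0.17 and 0.16 of 0 in both, while Mat2a stands at 0.37 and -0.61 and Alkbh5 at -0.60 and -0.46.

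The mean of Mettl3 and Mettl14 over the 12 groups was compared with 15210 genes of a mean level of at least 50. The most similar patterns were those of Scyl3 (Pearson's r = 0.993), Tubgcp5 (0.990), Nkrf (0.988), Gm49204 (0.987) and Cpsf7 (0.987). Among the other writer genes Wtap came closest with 0.970, at rank 77, ahead of Rbm15b with 0.945 at rank 368 and Rbm15 with 0.932 at rank 566. Virma had 0.916, Cbll1 0.844 and Zc3h13 0.819, and Mettl16 was the least like with 0.641, at rank 4846. The groups share libraries and a common trend with labelling time, so these correlations over 12 group means are a description only.

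The writer genes lie on 7 chromosomes. The median difference of the genes on these with a mean level of at least 50 ran from -0.04 to -0.00 in KO minus WT. In dcIDR minus WT it ran from -0.03 to 0.00 but for chromosome 12, that of Cbll1, with -0.13. The 20 nearest genes of this level around Mettl3 had a median of -0.12 in dcIDR minus WT, near the -0.15 of Mettl3 itself. Those around Virma had 0.01 beside -0.17, and those around Rbm15 0.03 beside 0.16. Around Rbm15b the median in KO minus WT was -0.02, beside 0.13. Mettl3 also overlaps Tox4 on the opposite strand, which had 0.19 in KO minus WT (limma adjusted p = 0.00254) and 0.10 in dcIDR minus WT (limma adjusted p = 0.124). Virma and Cbll1 overlap the antisense genes Gm11831 and Gm29542, and Rbm15b also touches Dcaf1. The counting's use of strand is not given in the sources used here, so reads in these overlaps are uncertain.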

How the data were processed

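Per the labels' protocols, RNA of EU-labelled Drosophila cells was added, a click-chemistry kit captured the labelled RNA, and libraries were made with a stranded kit for total RNA. The submitters' processing notes name HISAT2, SAMtools and Picard and the genome build GRCm39, per the labels; versions, read counter, use of strand and annotation are not given in the sources used.

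The deposited values are log2 ratios, in which the authors set 20, 40 or 60 min against 10 min of the same genotype after scaling to spike-in reads and combining replicates, per the file headers and the values. Columns headed ki were read as dcIDR, the genotype left after wt and ko. The deposited table of repeats was not used here. From these ratios the whole reads of all 24 libraries were worked out, since each value is a ratio of sums of whole reads per spike-in read, times a constant of 40000, plus 1. The splitting of a group's reads between its libraries was ambiguous for 2834 tested genes; there the group entered the fit as 1 value. Among genes with at most 20 reads, values of 2 reads (68391) outnumbered those of 1 (32096), and it is not known whether mates were counted separately.

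The filter for testing was a mean level of at least 10, with reads in at least 6 libraries. Relative log2 levels, with a pseudocount of 1, which understates changes of low genes, were fitted with limma 3.58.1 (R 4.3.3) using a coefficient per group (12), a spread shared by all 24 libraries and its trend with the level. Genotype differences are means over the 4 times, and p-values were adjusted by Benjamini-Hochberg over the 22448 genes at a threshold of 0.05. Libraries of a group differed with a chi-square per degree of freedom of 2.39 to 5.29, taking each read as 1 count, and each was entered as a library of its own. Mates counted separately would raise these values. They do not tell separate dishes from repeat libraries of the same RNA. The scripts were tested on simulated data. Symbols were matched to 51948 of 56941 gene IDs. Lengths and overlaps come from GENCODE M21 (GRCm38), and promoters from RefSeq.

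All 9 members are named. Other m6A genes were named if they passed with a log2 difference of at least 0.4 in size, and Mat2a always (1 gene that met this rule is not reported here); similar patterns were the 5 of highest correlation. Members, lists and tests were chosen with earlier results of these data known. The alternatives tried were the deposited spike-in scale, quantile normalization, a pseudocount of 10, no filter or a mean level of at least 50, no 10 min libraries and leaving out each library. Sharing out the unclear splits, a fit without the trend of the spread, a centring on genes outside chromosomes 4, 6, 8, 11 and X, and the deposited scale without 10 min were added after seeing the data.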

Additional observations from a re-analysis of the deposited data

Results flagged for a closer look

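The difference between dcIDR and WT varied with labelling time for 4 writer genes and for 4 other m6A genes chosen above by the size of a difference, by limma's F test on the difference itself, adjusted over all genes. Among the writer genes these were Mettl3 (limma adjusted p = 0.0336), Wtap (0.0144), Rbm15 (0.00521) and Cbll1 (0.0208), with the values by time given above. Igf2bp1 had -0.26, -0.39, -0.72 and -0.41 at 10, 20, 40 and 60 min (limma adjusted p = 0.0178). Hnrnpa2b1 had -0.52, -0.06, -0.08 and -0.10 (limma adjusted p = 0.0487). Mat2a had -0.92, -0.40, -0.63 and -0.48 (limma adjusted p = 0.0076) and Ahcyl1 0.22, 0.77, 0.30 and 0.35 (limma adjusted p = 0.0377). Over the whole lists the F test for dcIDR minus WT called 6 of 14 readers, 2 of 8 genes of methyl donor metabolism, 1 of 5 other adenosine methyltransferases and partners, 0 of 2 erasers and 0 of 3 guides and restraints, beside 7.82% of all tested genes, and 1 of 8 stem cell and 1 of 4 neural markers. The 4 readers besides Igf2bp1 and Hnrnpa2b1 were Ythdf3 (limma adjusted p = 0.00409), Prrc2a (0.00653), Ythdc1 (0.0247) and Fmr1 (0.0352), named after their values were seen. No group has 4 or more libraries, so single libraries were not checked for standing apart.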

How the results depend on the processing

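No paired analysis was possible because the recovered libraries carry no replicate numbers. The slopes in WT passed for 8 writer genes without any 1 library, all positive. With quantile normalization 5 passed, 4 of them positive and that of Mettl16 negative. By limma's F test for KO minus WT 0 passed in any fit that left out 1 library. Of the 9 writer genes, the number called in KO minus WT (1, beside 32.1% of all genes) was 3 on the deposited scale (30.5%), 2 with a pseudocount of 10, with unclear splits shared out or centred outside chromosomes 4, 6, 8, 11 and X (32.4% to 34.6%), 0 without the trend (30.1%; 1 at an unadjusted p under 0.05), 0 on the deposited scale without 10 min (12.9%; 0 unadjusted), and 0 to 2 without 1 library. For dcIDR minus WT (3, 27.8%) it was 0 on the deposited scale (10.8%), 1 without the filter (11.1%) or without the trend (25.1%), 5 on the deposited scale without 10 min (33.2%), and 2 to 3 without 1 library. For dcIDR minus KO (6, 45.2%) it was 1 on the deposited scale (26.8%), 3 without the filter (22.6%), 3 on the deposited scale without 10 min (27.8%), and 3 to 6 without 1 library. Dependence of dcIDR minus WT on time (4, 7.82%) was called for 9 on the deposited scale (33.8%), for 0 without the filter, without the trend, without 10 min and on the deposited scale without 10 min (4, 4, 2 and 1 at an unadjusted p under 0.05; 0 to 2.09% of all genes), and for 1 to 5 without 1 library; WT 10 min A left 1, Rbm15 (limma adjusted p = 0.0197), and without WT 20 min B or dcIDR 20 min A there were 2, Wtap and Rbm15. Mettl3 was also lost without WT 10 B, WT 60 A or B, dcIDR 10 A, dcIDR 20 B, and dcIDR 60 A or B (named by minutes). The causes were not tested.

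The call of Mettl3 in dcIDR minus WT held without WT 10 A, 20 B or 40 A, KO 20 A, 20 B, 40 A or 40 B, and dcIDR 10 B or 40 B (named by minutes), and not without any other library (limma adjusted p = 0.0258 to 0.128). That of Rbm15b in KO minus WT held without WT 10 A, 20 A or 40 B, KO 20 B or 60 A, or any dcIDR library at 10 or 60 min (0.0200 to 0.149). In dcIDR minus KO, Cbll1 was lost without KO 10 A, 20 B, 40 B or 60 B or library A of any dcIDR group (up to 0.114), and Rbm15b held only without WT 10 A or B, KO 20 B or 60 A, and dcIDR 10 B, 40 A or 60 A. Signs turned without single libraries for Rbm15 in KO minus WT (-0.017 to 0.018), Rbm15b in dcIDR minus WT (-0.022 to 0.039) and Zc3h13 in dcIDR minus KO (-0.074 to 0.0054).

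On the deposited scale signs turned in KO minus WT for Mettl14 (0.20), Wtap (0.28), Cbll1 (0.22) and Mettl16 (0.26), and in dcIDR minus WT for Mettl3 (0.021), Wtap (0.077) and Mettl16 (0.076). Without 10 min on that scale they turned in KO minus WT for Mettl14 (0.049), Wtap (0.13), Cbll1 (0.085) and Mettl16 (0.13), in dcIDR minus WT for Mettl3 (0.38), Wtap (0.41), Virma (0.30), Mettl16 (0.31) and Alkbh5 (0.0083), and in dcIDR minus KO for Mettl3 (0.19), Wtap (0.28), Virma (0.085), Zc3h13 (0.18), Rbm15b (0.21) and Mettl16 (0.18). Other turned signs were those of Wtap in KO minus WT with quantile normalization (0.0030), a pseudocount of 10 (0.00099), no filter (0.026) and the other centring (0.012), and without 10 min in dcIDR minus WT (0.014) and minus KO (0.058). Zc3h13 turned with quantile normalization in dcIDR minus KO (0.034) and in its WT slope (-0.00079). Mettl16 turned without the filter in KO minus WT (0.010), and in its WT slope with quantile normalization (-0.094) and at a mean level of at least 50 (-0.021). With all libraries on the relative scale, no genotype difference of a writer gene within 0.1 of 0 passed limma's test. The smallest difference that 2 libraries a group could detect was not worked out, so a missing call does not show that genotypes were alike.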
